A study of Mus musculus with 200 samples.

Results

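The genes of oxidative phosphorylation were followed in bulk RNA sequencing of the brain of 200 mice after closed head injury (CHI) or sham surgery. Members were all rows of the deposited count table whose gene names begin with mt-Nd, mt-Co, mt-Cyt, mt-Atp, Nduf, Uqcr, Cox4 to Cox8 or Atp5, and that held at least 10 counts in at least 20 mice. Of 56941 rows, 13 encoded by the mitochondrial genome and 92 by the nucleus carried such a name and passed the count requirement, and 20 more rows with such a name did not pass. Among those 20 were the striated muscle isoform Cox8b (10 counts or more in 11 mice), Cox7b2 (3 mice) and Cox8c (0 mice), and the other 17 reached 10 counts in no mouse.

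Oxidative phosphorylation couples the transfer of electrons along complexes I to IV of the inner mitochondrial membrane to the pumping of protons, and complex V uses the returning protons to make ATP. Complexes I, III, IV and V are mosaics: a few core subunits are made inside the mitochondrion from its own DNA, whose genes are transcribed as long RNAs and cut apart at transfer RNAs, and all other subunits are nuclear genes whose proteins are imported. Neurons rely heavily on this pathway for ATP, and transcripts of mitochondrial DNA are abundant in brain RNA.

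The mice carried one of 4 strain labels. Of these, 61 were C57BL/6J (43 CHI, 18 sham, 31 male, 4.4 to 6.8 months old), 55 were IL-1R1 gKO (37 CHI, 18 sham, 26 male, 3.3 to 7.4 months), 50 were IL-1R1 eRestore (33 CHI, 17 sham, 24 male, 4.5 to 7.4 months) and 34 were IL-1R1 nRestore (20 CHI, 14 sham, 17 male, 3.3 to 7.67 months). IL-1R1 is the receptor for interleukin-1, and the labels do not say how the gene was altered or which cells express it in the last 3 strains. Brains were taken at 9, 24 or 72 h: CHI groups held 15, 14 and 14 C57BL/6J, 13, 12 and 12 gKO, 12, 9 and 12 eRestore and 6, 8 and 6 nRestore mice, and sham groups 6, 6 and 6, 6, 6 and 6, 6, 5 and 6, and 4, 5 and 5. The mice came from 8 labelled experiments that did not hold the strains evenly. All 10 nRestore mice of 9 h belonged to experiment TM-2-33, which held no C57BL/6J mouse, and all nRestore mice of 72 h were male. Experiment NiL-1-21 gave CHI mice of 24 h but no sham mice of 24 h in gKO, eRestore and nRestore. At 24 h sham mice of these strains were at most 5.3 months old, and CHI mice up to 7.4, 7.4 and 7.2 months. In these comparisons CHI, experiment and age cannot be fully told apart.

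Libraries held between 14860000 and 57360000 counts, and the 13 mitochondrial members took 4.11% to 8.61% of them (median 5.76%), against 0.486% to 1.09% for the 92 nuclear members. Differences are given as log2 fold changes with their standard errors (SE) from edgeR's quasi-likelihood test, called at an adjusted P (Benjamini-Hochberg over all genes tested) below 0.05; levels of one gene are CPM (counts scaled to library size with TMM factors) and levels between genes are TPM (also scaled to transcript length). In bulk tissue, fewer cells of a type and less RNA per cell cannot be told apart.

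Il1r1, the gene named in 3 of the strain labels, went against the label gKO. It had medians of 5.20 CPM in C57BL/6J, 9.92 in gKO, 7.76 in eRestore and 9.38 in nRestore mice, and was called higher in each of the 3 strains (log2 fold changes of 0.84, 0.51 and 0.76). The strains are therefore called by their labels throughout. Nnt, which encodes a proton-driven transhydrogenase and of which C57BL/6J mice carry an inherited deletion, was lower in C57BL/6J (lowest, median and highest 11.3, 15.7 and 25.3 CPM) than in the other strains (15.3, 31.2 and 38.0 CPM over all mice of the 3), and the ranges overlapped. In 4 libraries Nnt lay nearer the other side's median and in 2 libraries Xist and Ddx3y went against the sex label, 5 libraries in all. They were a C57BL/6J CHI mouse and a gKO CHI mouse of 72 h, 2 eRestore sham mice of 24 h, and an nRestore CHI mouse of 72 h that went against both labels. Without them the Nnt ranges did not overlap (11.3 to 19.8 CPM against 23.8 to 38.0 CPM). This followed from the rule, since the libraries nearer the other side's median in Nnt had been left out. The gKO mouse was a marginal case, with 21.8 CPM of Nnt against 23.8 CPM in the lowest mouse kept. Where these 5 libraries enter, counts of members called are also given without them for 3 kinds of comparison. These are the strain fit over all mice, CHI against sham, and the difference of the CHI effect from C57BL/6J. Strain contrasts by time point, and those with the experiment added, were not refitted without them.

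Mitochondrial transcripts far exceeded nuclear ones per length. mt-Co1, the catalytic core of complex IV, had a median of 32020 TPM (23830 to 47770 over the 200 mice), followed by mt-Cytb of complex III (14120 TPM), mt-Nd1 of complex I (13900 TPM), mt-Atp8 (13550 TPM) and mt-Atp6 (11750 TPM) of complex V, mt-Nd4 (10820 TPM) and mt-Nd4l (10280 TPM). Lower medians were those of mt-Co3 (9773 TPM), mt-Nd2 (8768 TPM), mt-Nd6 (6233 TPM), mt-Nd5 (6028 TPM), mt-Co2 (3234 TPM) and mt-Nd3 (2344 TPM). The most abundant nuclear members were Atp5b, the catalytic beta subunit of complex V (1628 TPM, 1031 to 3309), Atp5md (1385 TPM), Cox4i1 (1155 TPM), Cox6a1 (1129 TPM) and Cox8a (1108 TPM). Some members ranged widely between mice, mt-Nd3 from 284.8 to 10490 TPM, mt-Nd4l from 267.5 to 15480 TPM, mt-Co2 from 1236 to 9279 TPM and mt-Atp8 from 6245 to 40180 TPM.

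The short mitochondrial genes sit close to, or inside, their neighbours. mt-Nd3 (chrM, 9459 to 9806, 348 bases, plus strand) does not overlap another gene, and a transfer RNA lies between it and mt-Nd4l (9877 to 10173, 297 bases). mt-Nd4l shares 7 bases with mt-Nd4 (10167 to 11544), and mt-Atp8 (7766 to 7969, 204 bases) shares 43 bases with mt-Atp6 (7927 to 8607), and how reads over the shared bases were divided was not measured. The reference sequences (GRCm39, plus strand, 5′ to 3′) are shown because the largest strain difference fell on mt-Nd3, and because mt-Nd4l and mt-Atp8 ranged widely between mice. In the first line capitals mark mt-Nd3, in the second mt-Nd3 and mt-Nd4l on either side of the transfer RNA, and in the last 2 the bases that both genes of a pair share.
start of mt-Nd3, chrM:9429-9518: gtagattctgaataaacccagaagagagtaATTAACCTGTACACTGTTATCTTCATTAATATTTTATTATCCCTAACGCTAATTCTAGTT
end of mt-Nd3 to start of mt-Nd4l, chrM:9777-9906: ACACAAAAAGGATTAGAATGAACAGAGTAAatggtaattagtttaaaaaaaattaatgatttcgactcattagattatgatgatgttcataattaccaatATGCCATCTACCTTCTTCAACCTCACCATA
end of mt-Nd4l and start of mt-Nd4, chrM:10137-10203: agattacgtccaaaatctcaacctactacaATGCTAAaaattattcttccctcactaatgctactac
end of mt-Atp8 and start of mt-Atp6, chrM:7897-7999: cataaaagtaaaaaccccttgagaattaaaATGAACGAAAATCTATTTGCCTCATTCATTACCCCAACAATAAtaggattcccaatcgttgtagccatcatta

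In each pair of tissue isoforms the general form was the more abundant. Among subunits with a general and a muscle, testis or lung form, Cox6a1 (1129 TPM) stood above the muscle form Cox6a2 (16.7 TPM), Cox4i1 (1155 TPM) above Cox4i2 (3.35 TPM), Cox6b1 (510 TPM) above the testis form Cox6b2 (6.32 TPM), and Cox7a2 (293 TPM) above the muscle form Cox7a1 (6.35 TPM, listed at 0 in the lowest mouse). Ndufa4 (727 TPM) exceeded its hypoxia-responsive relative Ndufa4l2 (4.91 TPM). The 3 genes for the membrane ring subunit c of complex V, Atp5g3 (554 TPM), Atp5g1 (354 TPM) and Atp5g2 (196.4 TPM), were all well detected. For 5 members that are near copies of another gene (Ndufb4b, Ndufb4c, Cox5b-ps, Atp5pb-ps and Ndufa12-ps, 98.8% or more identical to their parents over the aligned bases, Ndufb4c over all 390) reads may be divided between copy and parent, and their values are uncertain.

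The first question was how mitochondrial members stood against nuclear members by strain. The summed TPM of the 13 mitochondrial members had its median at 154500 in C57BL/6J, 139300 in gKO, 128900 in eRestore and 153400 in nRestore mice, while the summed TPM of the nuclear members differed little (27500, 27870, 27350 and 28590). The log2 ratio of these sums had a lowest, median and highest value of 1.85, 2.51 and 3.16 in C57BL/6J. It was 1.83, 2.32 and 3.23 in gKO, 1.68, 2.25 and 2.67 in eRestore and 2.18, 2.42 and 2.83 in nRestore mice. All strains overlapped widely, and the spread within a strain exceeded the distance between medians. The ratio is a description and was not tested.

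The ratio also varied between experiments within one strain. In C57BL/6J its median was 2.36 in eIL-1-38 (22 mice), 2.66 in eIL-1-76 (14 mice) and 2.75 in eIL-1-80 (7 mice). In eRestore mice the medians of the same experiments were 2.15, 2.23 and 2.50, and in gKO mice 2.19, 2.36 and 2.34, below C57BL/6J in each of the 3 experiments. The ratio in the other experiments that held these strains is not given here. mt-Co1, the most abundant member, was below C57BL/6J within 5 of 6 experiments in gKO (highest log2 fold change 0.086) and 5 of 5 in eRestore mice. The direction in gKO was not the same in all experiments. Within eIL-1-56 (3 gKO and 4 C57BL/6J mice) mt-Co1, mt-Cytb (0.157), mt-Nd1 (0.132), mt-Nd2 (0.078) and mt-Nd5 (0.221) were above C57BL/6J. Over the 6 experiments mt-Cytb, mt-Nd1 and mt-Nd2 were below in 5 and mt-Nd5 in 4, and mt-Nd6, mt-Co2 and mt-Nd3 in 6.

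**Figure D1:**
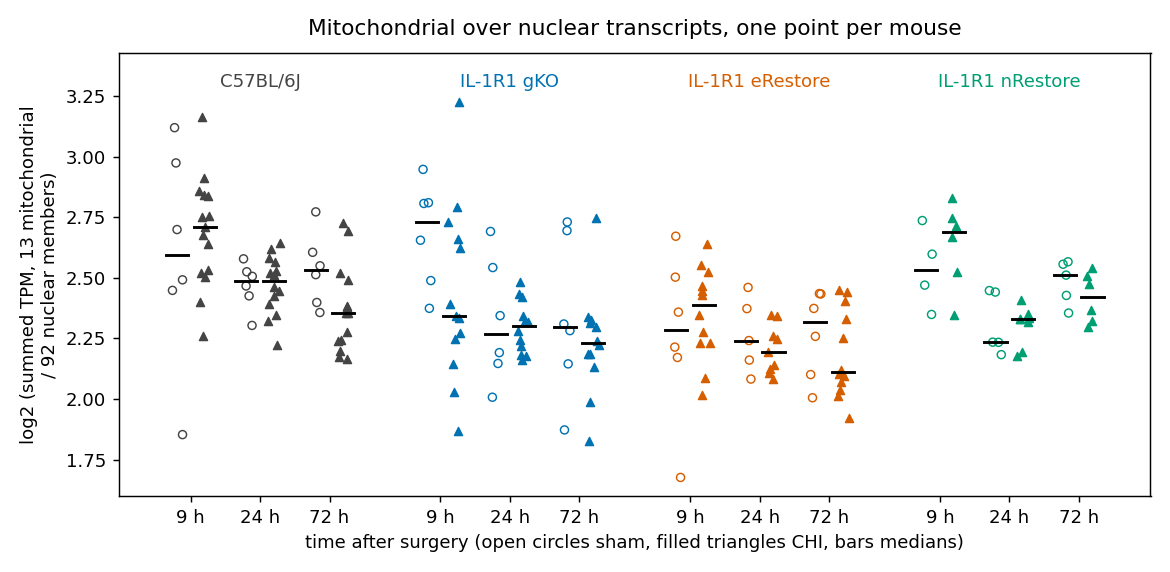
Log2 ratio of the summed TPM of 13 mitochondrial to 92 nuclear members (y axis) for each mouse by strain and hours after surgery (x axis); open circles are sham mice, filled triangles CHI mice, bars medians. The eRestore mice lie lowest (median 2.25) and the C57BL/6J mice highest (median 2.51), with broad overlap, and the widest scatter is at 9 h.

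Member by member, mitochondrial transcripts were mostly lower than in C57BL/6J in 2 of the 3 strains. In the fit over all 200 mice, with surgery and time, sex and age, 7 of 13 were called lower in gKO, 12 of 13 in eRestore, and 2 of 13 lower and 1 higher in nRestore. Over all genes tested 28.2% were called in gKO (13.8% higher, 14.4% lower), 30.0% in eRestore (14.9% higher, 15.1% lower) and 38.3% in nRestore mice (19.1% higher, 19.2% lower). The median log2 fold change of the 13 was −0.14, −0.30 and −0.02, that of the 92 nuclear members −0.01, −0.06 and 0.04, and that of all genes 0.01, 0.00 and 0.01. The 3 contrasts share the same C57BL/6J mice and are not independent of each other.

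mt-Nd3, a small membrane subunit of complex I, stood apart from the other 12. Its lowest, median and highest levels were 68.9, 200 and 502 CPM in C57BL/6J, against 13.2, 92.1 and 254 CPM in gKO, 41.2, 86.4 and 244 CPM in eRestore and 53.9, 96.3 and 291 CPM in nRestore mice. The medians of the 3 strains were thus near the lower end of the C57BL/6J mice, though the ranges overlapped. The log2 fold change was −1.21 (SE 0.11, adjusted P = 3.56e-19) in gKO, −1.29 (SE 0.12, adjusted P = 4.21e-20) in eRestore and −1.02 (SE 0.13, adjusted P = 5.05e-11) in nRestore.

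The difference of mt-Nd3 was seen again inside experiments. With the experiment added as a covariate it was −1.27, −1.23 and −1.18, and it was below 0 within 6 of 6, 5 of 5 and 3 of 3 experiments that held at least 3 mice of both strains. In C57BL/6J mice themselves the median ran from 94.0 CPM in nIL-1-60 (2 mice) and 113 CPM in eIL-1-76 to 345 CPM in eIL-1-56. The mice of eIL-1-76 were all of 9 h, and those of nIL-1-60 and eIL-1-56 all of 72 h. Between eIL-1-76 and the other experiments named, experiment and time cannot be told apart. Of the libraries that went against a label, the C57BL/6J mouse had 92.7 CPM of mt-Nd3, and the eRestore and nRestore mice with low Nnt had 244 and 291 CPM, the highest of their strains. The gKO mouse with low Nnt did not set the highest level of its strain, which was 254 CPM with and without it. Without the 5 libraries the highest levels were 254 CPM in gKO, 161.6 CPM in eRestore and 154.8 CPM in nRestore mice, and the log2 fold changes were −1.22, −1.35 and −1.11.

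**Figure D2:**
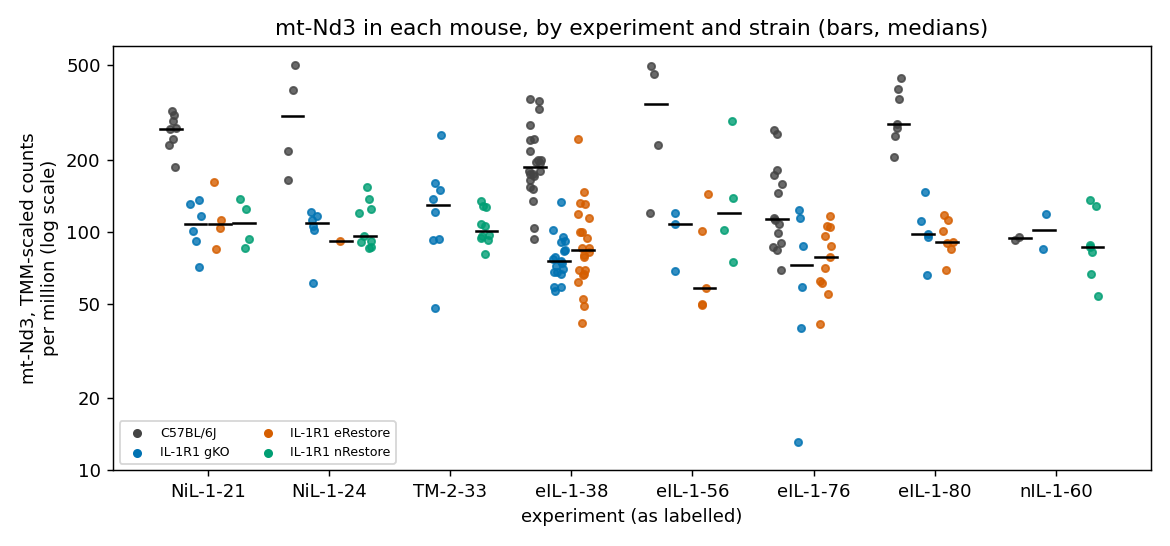
CPM of mt-Nd3 on a log axis (y) for each mouse in each of the 8 experiments (x), coloured by strain, with bars at the medians. Levels differ between experiments, and within the shared experiments C57BL/6J mice tend to lie above the other strains (medians over all mice 200 CPM against 92.1, 86.4 and 96.3 CPM).

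The remaining complex I genes of mitochondrial DNA were lower by much less. mt-Nd2 had medians of 4022 CPM in C57BL/6J, 3499 in gKO, 3160 in eRestore and 3842 in nRestore mice, with log2 fold changes of −0.18 (SE 0.04, adjusted P = 0.00014), −0.30 (SE 0.04, adjusted P = 7.6e-11) and −0.07 (not called). mt-Nd1, mt-Nd5 and mt-Nd6 were called lower in gKO (−0.14, −0.13 and −0.16) and in eRestore (−0.24, −0.28 and −0.35) but not in nRestore (−0.05, −0.02 and −0.03). mt-Nd6 is the single member on the minus strand of mitochondrial DNA (13552 to 14070) and overlaps mt-Nd5 on the plus strand. mt-Nd4 was called lower in eRestore alone (−0.24, against −0.09 and 0.04), and mt-Nd4l in no strain (−0.14, −0.19 and −0.01, SE 0.13 to 0.15). The large error of mt-Nd4l came with 9 mice between 8.09 and 43.4 CPM, spread over the 4 strains, while the next lowest mouse had 124.9 CPM.

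mt-Cytb, the core of complex III, was lower in gKO (−0.15, SE 0.04, adjusted P = 0.000911) and in eRestore (−0.26, SE 0.04, adjusted P = 2.67e-09), and its value in nRestore was −0.07 (not called). Of the complex IV genes, mt-Co1 was lower in each strain: its lowest, median and highest levels were 18050, 24310 and 37280 CPM in C57BL/6J, 15810, 21420 and 31190 in gKO, 14950, 19000 and 30880 in eRestore and 16860, 22520 and 32670 in nRestore mice. The log2 fold changes were −0.21 (adjusted P = 3.85e-06), −0.32 (adjusted P = 6.63e-12) and −0.12 (adjusted P = 0.0213). mt-Co2, which carries the copper centre that accepts electrons from cytochrome c, had medians of 839, 690, 555 and 906 CPM and was called in eRestore alone (−0.60, SE 0.10, adjusted P = 9.34e-08, against −0.20 and 0.07). mt-Co3 was likewise called in eRestore (−0.34) and not in gKO (−0.14) or nRestore (0.04). Whether these members differed more in one strain than in another was not tested.

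The 2 complex V genes parted in nRestore mice. mt-Atp6, the proton channel subunit, was lower in eRestore (−0.29, adjusted P = 2.16e-06), with −0.12 in gKO and 0.03 in nRestore (neither called). mt-Atp8 had a lowest, median and highest level of 112, 228 and 534 CPM in C57BL/6J, 112, 240 and 785 CPM in gKO, 97.8, 194.2 and 416 CPM in eRestore and 215, 324 and 787 CPM in nRestore mice. It was lower in eRestore (−0.32, SE 0.11, adjusted P = 0.015) and higher in nRestore (0.44, SE 0.12, adjusted P = 0.00146), the one mitochondrial member called higher in any strain. With the experiment as a covariate its value in nRestore was −0.17 (adjusted P = 0.343).

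Adding the experiment changed the nRestore contrast most. With it, 11 mitochondrial members were called lower in gKO, 12 in eRestore and 8 in nRestore, and none higher (medians −0.19, −0.28 and −0.18), where 26.0%, 31.3% and 13.7% of all genes were called. In nRestore, mt-Co1 then stood at −0.19, mt-Nd2 at −0.21 (adjusted P = 0.000752) and mt-Co2 at −0.37 (adjusted P = 0.0171). Strain and experiment could be told apart only for the experiments that held both. Without the 5 libraries that went against a label, 7, 12 and 2 mitochondrial members were called lower and 1 higher in nRestore, with medians of −0.14, −0.28 and −0.02 (all genes called 29.4%, 29.2% and 39.5%).

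**Figure D3:**
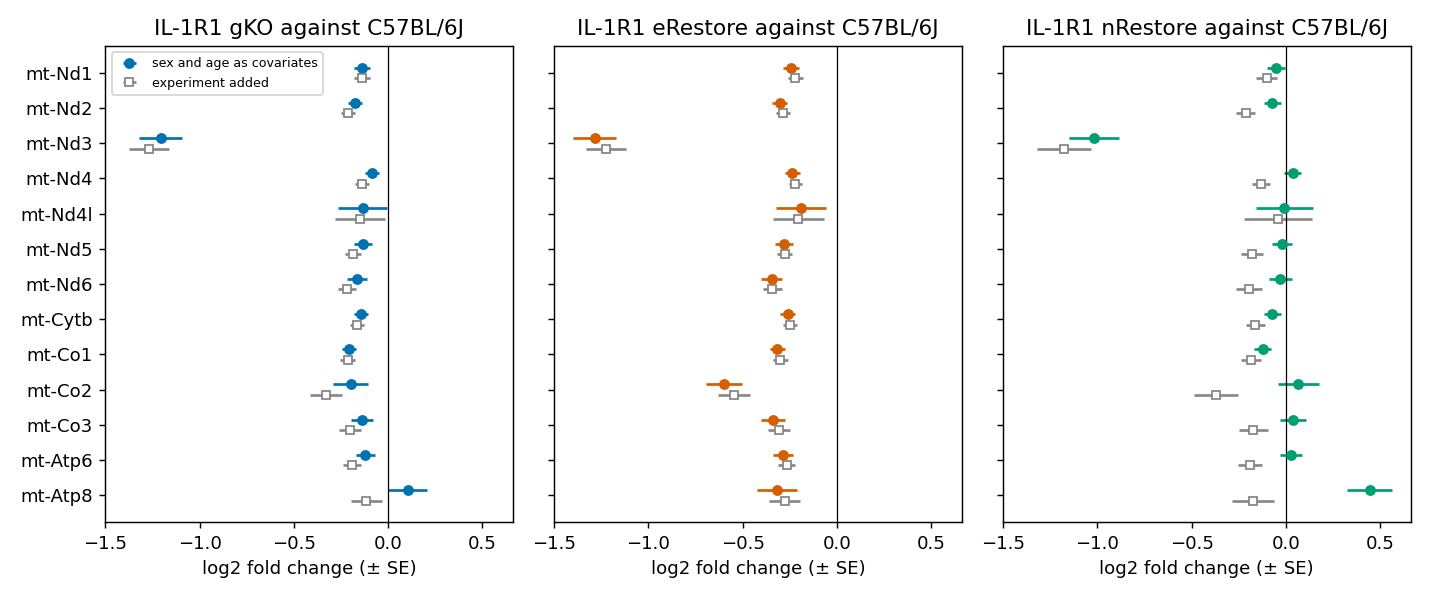
Log2 fold change against C57BL/6J (x axis, bars of 1 SE) of the 13 mitochondrial members (y axis) in the 3 other strains; filled circles have sex and age as covariates and open squares have the experiment added. mt-Nd3 lies near −1.21, −1.29 and −1.02 and the others lie closer to 0, and in nRestore most members move down when the experiment is added.

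Nuclear members were called in both directions. In gKO 5 of the 92 nuclear members were higher and 17 lower, in eRestore 2 and 26, and in nRestore 21 and 12. Of all genes tested, 13.8% were called higher and 14.4% lower in gKO, 14.9% and 15.1% in eRestore, and 19.1% and 19.2% in nRestore. The nuclear counts, and those of the complexes below, are to be read beside these shares. Counting nuclear members alone, complex I had 1 higher and 8 lower of 37 in gKO, 0 and 11 in eRestore and 7 and 5 in nRestore. Its 8 assembly factors had 1 and 2, 0 and 5, and 2 and 1. Complex III had 0 higher and 2 lower of 8 in each strain. Complex IV had 0 and 3, 0 and 5, and 3 and 2 of 17, complex V had 2 and 1, 2 and 3, and 6 and 1 of 17, and the 5 copies and pseudogenes had 1 and 1, 0 and 0, and 3 and 1. Over mitochondrial and nuclear members together, 17 (3 higher, 14 lower) were called in nRestore with the experiment added. The 14 include the mitochondrial members called lower in that fit, given above, so they are not a nuclear count.

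Among complex I members, Ndufs1 and Ndufc2 were lower in every strain. Ndufs1, the largest subunit of the electron-input arm (chr1, 63182058 to 63216236), had a lowest, median and highest level of 126.4, 164.1 and 190 CPM in C57BL/6J, 114.7, 143.3 and 167.8 CPM in gKO, 122.9, 145.5 and 168.2 CPM in eRestore and 127.8, 148.8 and 170.9 CPM in nRestore mice. Its log2 fold changes were small but precise at −0.17 (SE 0.02, adjusted P = 2.97e-14), −0.16 (SE 0.02, adjusted P = 1.96e-12) and −0.13 (SE 0.02, adjusted P = 2.07e-07). Ndufc2, an accessory subunit of the membrane arm (chr7, 97049210 to 97057022), had medians of 64.9, 52.4, 49.7 and 52.6 CPM and log2 fold changes of −0.31, −0.37 and −0.29. Both kept their sign and call with the experiment added (−0.16, −0.16 and −0.12 for Ndufs1, and −0.32, −0.36 and −0.30 for Ndufc2).

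Further complex I members moved less or less steadily. Ndufa10, an accessory subunit, was lower at −0.13, −0.12 and −0.20, and the assembly factor Ndufaf1 at −0.19, −0.18 and −0.16, where nRestore lost the call with the experiment added (adjusted P = 0.0638). Ndufa8 was higher in gKO (0.14) and nRestore (0.20), and Ndufb6 in nRestore (0.21). None of these 3 values passed with the experiment added (adjusted P = 0.0778, 0.165 and 0.332). The assembly factors Ndufaf3 (0.09 in gKO) and Ndufaf6 (0.19 in nRestore) were also higher, the latter with an adjusted P of 0.57 once the experiment was added.

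Of complex IV, Cox7a2l was lower in each strain. Its product helps complexes III and IV assemble into supercomplexes (gene at chr17, 83765970 to 83824759, minus strand). Its lowest, median and highest levels were 82.1, 95.6 and 140 CPM in C57BL/6J, 45.8, 73.7 and 125.9 CPM in gKO, 50.2, 68.7 and 90.2 CPM in eRestore and 53.1, 78.1 and 120.7 CPM in nRestore mice. The medians of all 3 strains lay below the lowest C57BL/6J mouse, and the ranges overlapped. The log2 fold changes were −0.36 (SE 0.05, adjusted P = 3.78e-10), −0.50 (SE 0.05, adjusted P = 5.77e-17) and −0.31 (SE 0.06, adjusted P = 4.87e-06), and −0.38, −0.51 and −0.33 with the experiment added. The gene overlaps Eml4 on the other strand, and whether the counting used strand is not given in the sources used here.

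Cox6a2, the muscle form of a complex IV subunit, was lower in each strain from a low level (medians 4.16, 3.33, 3.45 and 2.99 CPM, log2 fold changes −0.46, −0.36 and −0.58). Among the other isoform pairs, Cox4i1 (0.13), Cox7a1 (0.54) and Cox7a2 (0.19) were called higher, in nRestore alone. With the experiment added none of the 3 passed (0.03, 0.29 and 0.07, adjusted P = 0.832, 0.372 and 0.557), and within NiL-1-24 Cox4i1 and Cox7a1 were at −0.03 and −0.90. Uqcrb of complex III was lower at −0.16, −0.22 and −0.10, and Uqcrc1 at −0.16, −0.13 and −0.22, where the nRestore value became −0.06 (adjusted P = 0.211) with the experiment added.

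In complex V, members higher than in C57BL/6J included the most abundant nuclear member. Atp5b (chr10, 127919132 to 127926261) had a lowest, median and highest level of 906, 1071 and 1672 CPM in C57BL/6J, 792, 1323 and 2491 CPM in gKO, 876, 1116 and 2014 CPM in eRestore and 1137, 1766 and 2201 CPM in nRestore mice. The nRestore median exceeded the highest C57BL/6J mouse. Its log2 fold change was 0.27 (SE 0.06, adjusted P = 0.000123) in gKO, 0.13 (not called) in eRestore and 0.64 (SE 0.07, adjusted P = 1.77e-15) in nRestore, and the last became 0.43 (adjusted P = 3.14e-06) with the experiment added. Atp5j2, a membrane subunit, was higher in each strain (0.18, 0.14 and 0.23) and also with the experiment added (0.19, 0.14 and 0.25). Atp5d of the central stalk was higher in eRestore (0.11), and Atp5e, also of the stalk, in nRestore (0.27, but adjusted P = 0.262 with the experiment added). The pseudogene Cox5b-ps, uncertain as said above, was higher in gKO (0.47), which became 0.04 (adjusted P = 0.887).

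Without the 5 libraries that went against a label the members called higher and lower were 6 and 24 in gKO, 3 and 36 in eRestore and 21 and 14 in nRestore. Without them Ndufs1 was −0.17, −0.16 and −0.15, Cox7a2l −0.37, −0.50 and −0.32, and Atp5b 0.28, 0.15 (called, adjusted P = 0.0481) and 0.66. The contrasts were also fitted among the mice of each time point alone. Whether they differed between time points was not tested, and the time points hold different mice and experiments. In eRestore, among mice of 9 h, 4 members were higher and 8 lower (12.5% of all genes called), among mice of 24 h 62 were lower (19.3%), and among mice of 72 h 25 were lower (15.0%), with none higher at either later time. At 9, 24 and 72 h, 10, 19 and 10 members were called in gKO and 4, 23 and 3 in nRestore. The share of all genes called is not given for these contrasts, so their counts cannot be set against it. In eRestore at 24 h 51 of the 62 were nuclear, with a nuclear median of −0.15 and a mitochondrial median of −0.39. Libraries of eRestore sham mice that went against a label enter this contrast, and it was not refitted without them.

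Other genes of mitochondrial energy metabolism were taken from fixed lists. The share of all genes called was 28.2% in gKO, 30.0% in eRestore and 38.3% in nRestore. The counts of these lists, and of the regulators and markers below, are to be read beside it. Of 17 tricarboxylic acid cycle genes tested, 0 were higher and 8 lower in gKO, 0 and 9 in eRestore and 1 and 6 in nRestore, among them Dlst, a subunit of the oxoglutarate dehydrogenase complex (−0.13, −0.12 and −0.12). Of 44 assembly factors without an Nduf name, 5 were higher and 7 lower, 5 and 12, and 14 and 4. Coa4, a complex IV assembly factor, was the largest of these (0.81, 0.80 and 0.99), with medians of 1.72, 3.11, 3.26 and 3.69 CPM, and Tmem126b, which helps to build complex I, was lower (−0.29, −0.37 and −0.24). Of 31 genes that copy, transcribe or process mitochondrial DNA and RNA, 3 were higher and 5 lower, 1 and 7, and 8 and 3. Polg, the mitochondrial DNA polymerase, was higher (0.18, 0.20 and 0.21), and Fastkd5, an RNA-processing factor of mitochondrial RNA granules, lower (−0.20, −0.25 and −0.28).

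Of 12 transcription regulators of nuclear subunits, 0 were higher and 1 lower in gKO (Gabpb1, −0.10), 3 and 1 in eRestore and 0 and 2 in nRestore. Of 10 rows for complex II, electron carriers and Nnt, 2 were higher and 2 lower, 2 and 1, and 2 and 1, and the higher ones were the rows named Nnt.

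Markers of cell types and nuclear RNA also differed between the strains. Of 8 oligodendrocyte markers, 7 were called lower in each strain (medians −0.27, −0.26 and −0.25), with summed medians of 6354 CPM in C57BL/6J, 5064 in gKO, 5048 in eRestore and 5300 in nRestore mice. Of 8 nuclear-retained long noncoding RNAs, 1 was higher in gKO, none in eRestore and 7 in nRestore (medians 0.18, −0.04 and 0.47). Their sum had a lowest, median and highest value of 753.8, 2873 and 7825 CPM in C57BL/6J and 1929, 3997 and 10380 CPM in nRestore mice. Among 6 blood cell markers 3 were higher in nRestore, of 4 skeletal muscle markers with enough counts 2 were higher in each strain (Myh1 by 0.82, 0.99 and 0.99), and no choroid plexus marker was called. The part of these markers in the strain results was not tested.

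The second question was whether CHI changed members. Over the 4 strains together, with strain, sex and age, 1 member (of 13 mitochondrial and 92 nuclear) was called at 9 h, when 23.9% of all genes were called. It was Ndufaf2, a complex I assembly factor (−0.23, SE 0.07, adjusted P = 0.0137; chr13, 108139249 to 108295189). At 24 h and 72 h edgeR called 0 members (1.48% and 0.706% of all genes called), with 7 and 4 at an unadjusted P below 0.05 and 0 by DESeq2, and also 0 (7 and 5 unadjusted) without the libraries that went against a label. The smallest adjusted P was 0.17 at 24 h (Ndufa5, −0.12) and 0.569 at 72 h (mt-Nd2, −0.14). Counts at an unadjusted P below 0.05, here and below, stand without the share of all genes under that threshold. They cannot be set against such a share and are not read as a result about the members. The median SE of a member was 0.07, 0.05 and 0.06.

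Mitochondrial medians over the 4 strains were 0.02, −0.05 and −0.13 at 9, 24 and 72 h, and nuclear medians 0.00, −0.04 and −0.01. At 72 h 12 of 13 mitochondrial members were below 0, and none was called. Without the libraries that went against a label the mitochondrial medians were −0.06 at 24 h and −0.14 at 72 h. Within the strains the 72 h mitochondrial medians were −0.06, −0.12, −0.19 and −0.22 in C57BL/6J, gKO, eRestore and nRestore, with 11, 12, 13 and 12 of 13 members below 0. The nuclear medians beside them were 0.08, −0.06, −0.07 and −0.16. The pooled contrast and those within strains use the same mice, and neighbouring mitochondrial genes are cut from one RNA, so that these counts do not stand for separate observations.

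mt-Nd3, which separated the strains, was not called after CHI. Its pooled log2 fold change was 0.06 (SE 0.18) at 9 h, −0.29 (SE 0.13, adjusted P = 0.301) at 24 h and 0.02 (SE 0.15) at 72 h. Within strains its largest value was −0.78 (SE 0.26, adjusted P = 0.415) in eRestore at 24 h, where one of the sham mice had low Nnt as described above. Without the 2 sham libraries that went against a label it was −0.43 (SE 0.29, adjusted P = 0.553), and its difference from the effect in C57BL/6J mice went from −0.37 to 0.15 (neither called). The eRestore CHI mice of 24 h from NiL-1-21 had no sham mouse of their experiment and were older than the sham mice. In nRestore at 72 h mt-Nd3 went from 0.11 (SE 0.46) to −0.46 (SE 0.16, adjusted P = 0.605) without the CHI library that went against both labels. The pooled values without all 5 libraries were −0.18 at 24 h and −0.05 at 72 h.

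Taken strain by strain, Ndufaf2 was called at 9 h in eRestore alone. Its lowest, median and highest levels were 9.10, 11.4 and 17.9 CPM in C57BL/6J sham mice and 6.83, 9.53 and 14.6 CPM after CHI (−0.27, adjusted P = 0.175). In gKO they were 8.62, 10.1 and 14.7 against 6.79, 11.4 and 15.7 CPM (0.01, adjusted P = 0.994), and in eRestore 9.63, 12.5 and 14.6 against 7.48, 9.03 and 10.7 CPM (−0.44, adjusted P = 0.00934). In nRestore the 4 sham mice ranged from 12.6 to 15.5 CPM and the CHI mice from 7.94 to 14.0 CPM (−0.28, adjusted P = 0.476). Sham and CHI mice overlapped in all 4 strains. The pooled call was lost in the experiment with the most mice, where 0 members were called, and within experiments the value was −0.27, −0.32 and −0.11.

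In C57BL/6J mice 14.1% of all genes were called at 9 h, and 0 of 104 members tested (3 at an unadjusted P below 0.05, 0 by DESeq2). The smallest adjusted P was that of Ndufb2 (−0.27, adjusted P = 0.144). At 24 h and 72 h 0.404% and 0% of genes and 0 members were called (3 and 4 unadjusted, 0 by DESeq2). Mitochondrial medians were 0.03, −0.05 and −0.06, and nuclear medians −0.04, −0.05 and 0.08. Without the C57BL/6J library that went against its label 6 members were under the unadjusted threshold at 72 h and 0 were called.

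In gKO mice 0.199%, 0.00590% and 0% of genes were called at 9, 24 and 72 h, and 0 members (4, 3 and 1 unadjusted, 0 by DESeq2). At 9 h mitochondrial members had a median of −0.14 and nuclear members one of 0.14, with no member called. The log2 ratio of their summed TPM was 2.37, 2.73 and 2.95 in sham mice (lowest, median and highest) and 1.87, 2.34 and 3.23 after CHI, and the CHI mice spanned the whole sham range. The median SE of a member was 0.16 here, the largest of the comparisons within a strain. In the later comparisons the mitochondrial medians were −0.03 and −0.12, and the nuclear ones 0.00 and −0.06. Without the gKO library of 72 h that went against its label, 0 members were called at 72 h (1 unadjusted), with medians of −0.12 and −0.06.

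**Figure D4:**
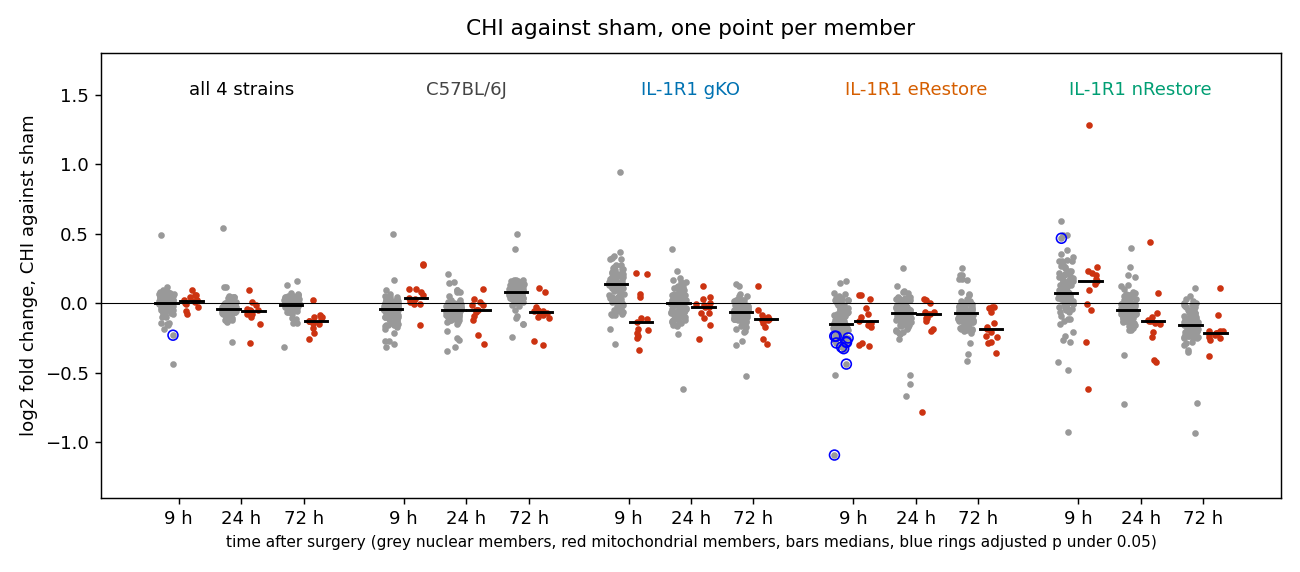
Log2 fold change of CHI against sham (y axis) for every member, by strain and hours after surgery (x axis); grey points are nuclear members, red points mitochondrial members, bars medians, and blue rings mark an adjusted P below 0.05. Rings appear at 9 h alone: 1 over the 4 strains, 10 in eRestore and 1 in nRestore mice.

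The eRestore mice at 9 h were the one group in which several members were called. There 10 of 104 members were lower and none higher, all nuclear, where 7.34% of all genes were called and 3.24% of all genes were called lower. The median log2 fold change was −0.15 for nuclear members (77 of 91 below 0), −0.13 for mitochondrial members and −0.02 for all genes. At an unadjusted P below 0.05 there were 35 members, and DESeq2 called 15, all lower. The share of all genes is given for neither of these counts. The 10 called by edgeR were 5 of 37 nuclear complex I subunits, 1 assembly factor, 2 of 8 complex III and 2 of 17 complex IV members. None of the 17 nuclear complex V or the 13 mitochondrial members was among the 10.

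Ndufb2, an accessory subunit of complex I (chr6, 39569490 to 39595671, overlapping Braf on the other strand), had the smallest adjusted P. Its lowest, median and highest levels were 34.8, 38.6 and 44.5 CPM in 6 sham mice and 28.2, 31.6 and 40.3 CPM in 12 CHI mice (−0.33, SE 0.06, adjusted P = 0.00152). The groups overlapped, with the CHI median below the lowest sham mouse. Ndufa1, needed for assembly of the complex I membrane arm, was 19.4, 21.5 and 24.8 CPM in sham and 13.6, 16.7 and 24.5 CPM in CHI mice (−0.32, adjusted P = 0.0411). Ndufa8 (−0.29, adjusted P = 0.0312), Ndufa13 (−0.24, adjusted P = 0.0448), also known as a cell death regulator, and Ndufb6 (−0.24, adjusted P = 0.0448) were the other complex I subunits, and Ndufaf2 has been given above.

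In complex III, Uqcrq was 52.2, 63.8 and 78.3 CPM in sham and 42.1, 54.4 and 62.7 CPM in CHI mice (−0.28, SE 0.08, adjusted P = 0.0298). Uqcrh, the hinge protein that binds cytochrome c1, was 75.5, 82.8 and 104 CPM against 63.4, 73.8 and 86.8 CPM (−0.25, adjusted P = 0.0375). In complex IV, Cox7a2 was 50.3, 66.9 and 71.4 CPM in sham and 42.3, 51.3 and 68.1 CPM in CHI mice (−0.28, SE 0.07, adjusted P = 0.0243). The CHI median of each of these lay below the sham median, and all ranges overlapped. Cox6b2, the testis form, was near the floor of detection at 0.631, 1.03 and 2.85 CPM against 0.208, 0.553 and 0.945 CPM (−1.09, SE 0.33, adjusted P = 0.0482).

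These calls depended on the model. Without covariates 3 members were called, with the experiment in place of age 6, and in the experiment with the most mice (eIL-1-76) 0, with 24 at an unadjusted P below 0.05. Within eIL-1-76 and eIL-1-80 the value of Ndufb2 was −0.25 and −0.24, that of Ndufaf2 −0.29 and −0.50, that of Cox7a2 −0.19 and −0.16, that of Cox6b2 −1.67 and −0.35, and that of Ndufa1 −0.43 and 0.00. In C57BL/6J mice the same 10 members lay between −0.27 and −0.05 at 9 h and none was called. The difference of the CHI effect between eRestore and C57BL/6J mice was not called for any member (smallest adjusted P = 0.676, Cox6b2), and for Ndufb2 and Cox7a2 it was −0.01 and 0.01.

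**Figure D5:**
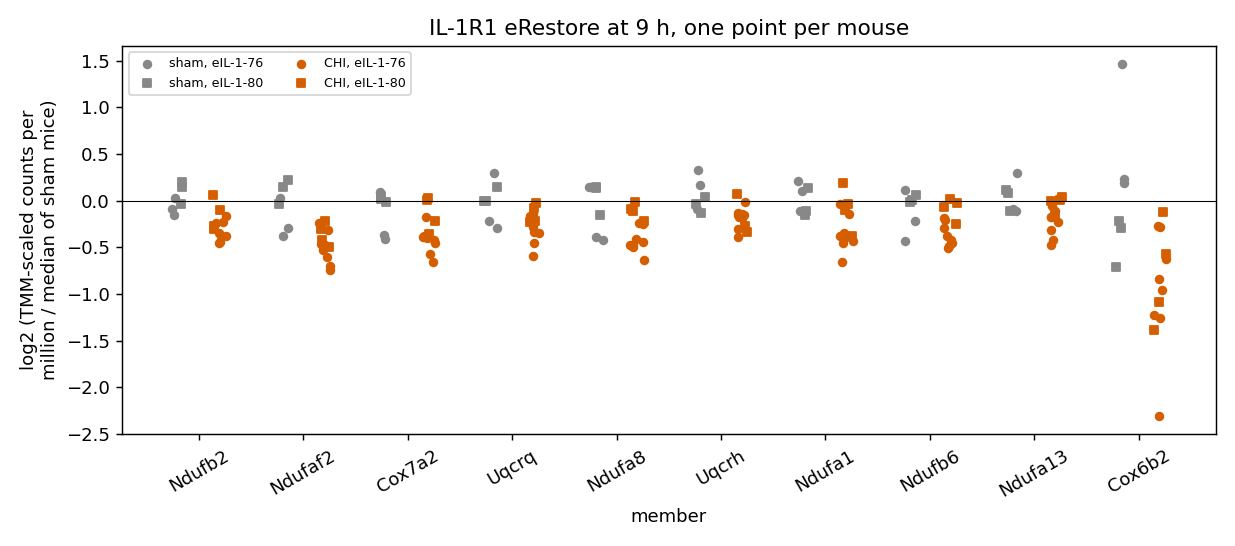
Log2 CPM over the sham median for the 10 members called in eRestore mice at 9 h, one point per mouse (y axis); the x axis gives the member, grey is sham, orange CHI, circles eIL-1-76 and squares eIL-1-80. CHI mice lie mostly below 0 and overlap the sham mice for each member, and Cox6b2 has the widest scatter.

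Other genes moved in the same comparison. Cox15, which makes the haem of complex IV, rose (0.32), as did Ppargc1a, a coactivator of mitochondrial genes (0.28), while the assembly factor Cox14 (−0.31) and the electron transfer flavoprotein subunits Etfa (−0.27) and Etfb (−0.26) fell. Of 8 nuclear-retained noncoding RNAs none was called, but their median was −0.74 and their sum 944, 2850 and 3600 CPM in sham against 743, 1294 and 3328 CPM in CHI mice. No choroid plexus marker (median −2.69) and no blood cell marker (median 2.47) was called. One sham mouse had a choroid plexus sum of 3616 CPM, the sham median being 25.6 CPM. Of 8 neuron markers 2 were higher. The part of these in the result was not tested.

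In eRestore mice at 24 h and 72 h, 0% and 0.00605% of genes and 0 members were called (12 and 5 unadjusted, 0 by DESeq2). Mitochondrial medians were −0.08 and −0.19, and nuclear medians −0.07 at both times. Without the 2 sham libraries of 24 h that went against a label, the mitochondrial median at 24 h was −0.22 and the nuclear median −0.11, with 19 members under the unadjusted threshold and 0 called.

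In nRestore mice 0.608% of genes and 1 member were called at 9 h (15 unadjusted, and 3 members, all higher, by DESeq2). The called member was Uqcr10, a small subunit of complex III (chr11, 4651968 to 4654653, overlapping Zmat5 on the other strand). Its levels were 28.8, 32.7, 32.7 and 40.0 CPM in the 4 sham mice, with CHI mice at 35.4, 36.6, 39.0, 41.3, 42.9 and 51.6 CPM (0.47, SE 0.10, adjusted P = 0.0419). A sham mouse overlapped the CHI mice, and leaving out one mouse at a time gave 0 to 2 called members. The difference from the effect in C57BL/6J mice (−0.10 there) was 0.40 (SE 0.25, adjusted P = 0.939). The highest mitochondrial value, 1.28, was that of mt-Nd4l, for which 1 sham mouse had 43.4 CPM and the next 281.8 CPM.

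In nRestore mice at 24 h and 72 h, 0% and 0.0121% of genes and 0 members were called (3 and 15 unadjusted, 0 by DESeq2), with mitochondrial medians of −0.13 and −0.22 and nuclear medians of −0.05 and −0.16. Without the CHI library of 72 h that went against both labels, the medians at 72 h were −0.26 and −0.20, and 39 members were under the unadjusted threshold with 0 called. The share of all genes under that threshold is not given.

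Whether the CHI effect differed between a strain and C57BL/6J was tested directly. At 9 h 0 members were called for gKO, eRestore and nRestore (all genes 0%, 0.0107% and 0.00534%; 4, 0 and 0 members unadjusted). At 24 h 0 were called (0.00541%, 0.0108% and 0% of all genes; 4, 0 and 1 unadjusted), and at 72 h 0 (0%, 0% and 0.00543%; 2, 2 and 16 unadjusted). DESeq2 called 0 in all 9 tests. Without the libraries that went against a label, 0 were called at 24 h (3, 0 and 1 unadjusted) and at 72 h (2, 3 and 30 unadjusted). The differences share the C57BL/6J mice of each time point.

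The wider pathway at 9 h, over the 4 strains, had calls in both directions, against 23.9% of all genes. Of 44 assembly factors 5 rose and 7 fell, among them Cox15 (0.24), the complex V factor Atpaf1 (0.14), Coa6 (−0.28) and Cox20 (−0.30), the last 2 acting on the copper subunit of complex IV. Of 31 genes of mitochondrial DNA and RNA handling 6 rose and 4 fell. The former included Tfam, the packaging and transcription factor of mitochondrial DNA (0.20), Grsf1 of the RNA granules (0.15) and 2 subunits of mitochondrial RNase P, Hsd17b10 (0.23) and Prorp (0.30). Of 12 regulators 3 rose and 3 fell, with Myc (0.32) and Ppargc1a (0.19) higher and Yy1 (−0.11) and Pprc1 (−0.18) lower. Of 17 tricarboxylic acid cycle genes 1 rose (Suclg1, 0.12), and of 10 rows for complex II, carriers and Nnt 1 fell (a row named Nnt, −0.75). Beside these, 5 of 8 microglia markers and 6 of 6 choroid plexus markers were lower, Gfap of astrocytes was higher (0.79), and 4 of 7 endothelial markers were higher and 1 lower. Their part in the result was not tested.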

How the data were processed

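Libraries of all mice were sequenced as paired-end reads on an Illumina NovaSeq X Plus, per the labels. The study's methods describe the C57BL/6J mice alone, with poly(A) libraries from one hemisphere per mouse taken after perfusion and the nf-core/rnaseq pipeline. Whether the tissue and libraries of the other strains were the same is not given in the sources used here. The authors aligned reads with STAR to GRCm39 and quantified genes with Salmon. They deposited a table of estimated counts, not normalized for depth or length, and a table of TPM values, which Salmon scales for transcript length and library size within a sample. The submitters' processing notes also name FastQC and DESeq2 without versions. Strandedness and annotation release are not given in the sources used here.

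Strain, surgery, time, sex, age and experiment came from the labels. Estimated counts were rounded to whole numbers and tested with edgeR 4.0.16 (TMM, robust quasi-likelihood F test) in R 4.3.3 with limma 3.58.1, and Benjamini-Hochberg adjustment over all genes tested (threshold 0.05). A gene was kept when the number of mice with 10 counts reached the size of the smallest group, or 20 mice for strains (18097 genes). CHI comparisons had sex and age as covariates (strain too when pooled, and no sex term for nRestore at 72 h), and strain comparisons the surgery-by-time group, sex and age. DESeq2 1.42.0 and other scalings, filters and covariates were alternatives. The fits were tested on simulated data.

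The members and lists were chosen with earlier results of these data known. Named were all 13 mitochondrial members, the tissue isoform pairs, every member called in a CHI comparison, for each strain the 6 higher and 6 lower called nuclear members with the smallest P, up to 4 called genes of each other list, and Il1r1 and Nnt. Rows below the filter, the most abundant nuclear members and the member with the smallest P in comparisons without calls were named after their values were seen. Members were matched by gene ID to GENCODE (all matched, 16 of them renamed there), which gave coordinates and overlaps: 62 members overlap a gene on the other strand and 25 one on the same strand. Sequences are from the GRCm39 genome.

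Libraries held 14860000 to 57360000 counts, and the errors given include the spread between mice. No libraries held identical values (highest correlation 0.9961). Each mouse is a separate animal, and mice were not paired.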

Additional observations from a re-analysis of the deposited data

Results flagged for a closer look

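Within groups of 4 to 10 mice, 10 measures in 16 groups (160 in all) were screened for a mouse far from the rest by Dixon's criterion, which flags about 1 in 20 groups by chance, and 13 were flagged. One eRestore sham mouse of 72 h (A149) was high in summed mitochondrial TPM (180000, the next 132400), in mt-Nd4l (484.9 CPM, the next 316.9) and in mt-Co1 (30880 CPM, the next 19420). The nRestore CHI mouse of 72 h that went against its sex and Nnt labels was high in mt-Nd3 (291 CPM, the next 128.7).

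For mt-Nd4l, low mice were flagged in nRestore sham at 9 h (43.42 CPM, the next 281.8) and at 24 h (22.09 CPM, the next 227.2). High mt-Atp8 was flagged in a gKO sham mouse of 9 h (785 CPM, the next 358.8) and an eRestore CHI mouse of 24 h (351.9 CPM, the next 227.3). High mt-Co1 was flagged in a gKO sham mouse (30250 CPM, the next 21450) and an eRestore CHI mouse (23250 CPM, the next 19310), both of 24 h.

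High Atp5b was flagged in a C57BL/6J sham mouse of 72 h (1672 CPM, the next 1124), an eRestore sham mouse of 24 h (1361 CPM, the next 1033) and an nRestore CHI mouse of 9 h (2201 CPM, the next 1545).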

How the results depend on the processing

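No paired analysis was possible because mice are separate animals and no replicate numbers are shared between groups. Counts of members called stayed within 1.5 times the values in the report except as follows. For CHI over the 4 strains at 9 h, the experiment with the most mice gave 0. In C57BL/6J at 24 h, no filter gave 2. In eRestore at 9 h, no covariates gave 3, experiment in place of age 6 and the experiment with the most mice 0. In nRestore at 9 h, DESeq2 gave 3 with size factors and 3 with gene-length offsets, no filter gave 9, no covariates gave 0, and leaving out one mouse gave 0 to 2 (0 to 0 in eRestore at 24 h and in nRestore at 24 and 72 h). For strains, sham mice alone gave 6 (gKO), 6 (eRestore) and 12 (nRestore), from fewer mice. The share of all genes called among sham mice alone is not given, so these counts cannot be set against it. Mice of 9, 24 and 72 h alone, an alternative chosen after seeing the data, gave 10, 19 and 10 (gKO), 12, 62 and 25 (eRestore) and 4, 23 and 3 (nRestore), from fewer mice. The experiment as a covariate gave 17 in nRestore. TMM-scaled counts in place of TPM, with no length term, moved the median log2 ratio to 3.00 (C57BL/6J), 2.80 (gKO), 2.73 (eRestore) and 2.80 (nRestore). Direction reversed for single members. In gKO these were, within eIL-1-56, mt-Nd1 (0.132), mt-Nd2 (0.078), mt-Co1 (0.086), mt-Nd5 (0.221), mt-Cytb (0.157) and Ndufaf3 (−0.019); within eIL-1-80 Atp5b (−0.052); within NiL-1-24 mt-Nd5 (0.027); Cox5b-ps within eIL-1-38 (−0.094), eIL-1-80 (−0.648) and NiL-1-24 (−0.024); and Ndufa8 at 72 h (−0.003). In eRestore they were Atp5d (−0.071) and Atp5j2 (−0.008) within eIL-1-56, Atp5j2 at 72 h (−0.006) and, for CHI at 9 h, Ndufa1 within eIL-1-80 (0.001, chosen after seeing the data). In nRestore they were mt-Atp8 with the experiment added (−0.174) and within NiL-1-24 (−0.108), mt-Co1 within eIL-1-56 (0.01), and Ndufaf6 (−0.018), Cox4i1 (−0.032) and Cox7a1 (−0.895) within NiL-1-24. Except where an alternative holds fewer mice, the cause was not tested. Leaving out the 5 libraries that go against a label, chosen after seeing the data, reversed no called member and moved no count of calls by over 1.5 times.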
